A study of Homo sapiens with 30 samples.

Results

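Nascent transcription was compared between A549 cells, an established human lung adenocarcinoma line, given dexamethasone (Dex) for 15 min and untreated A549 cells. Members were the 4 libraries whose labels name those treatments, 2 per group, of 30 libraries in 15 groups, and all 22919 genes that passed a filter on low counts of the 58780 in the count table. Dex was used at 100 nM, and both groups, untreated cells included, were held in 0.01% DMSO, with the untreated label also giving 15 min. Other groups used here were Dex at 100 nM for 3 h, and GSK591 or MS023 at 1 µM for 7 days. Each inhibitor was used alone or followed by Dex at 100 nM for 15 min. All of these groups were also held in 0.01% DMSO. GSK591 inhibits the arginine methyltransferase PRMT5 and MS023 inhibits type I arginine methyltransferases. Nothing in the labels says that the 2 libraries of a group came from separate cultures. The p-values thus rest on the spread between libraries of a group, pooled over all 15 groups, which may be technical.

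Dex is a synthetic glucocorticoid. It binds the glucocorticoid receptor, which leaves its cytoplasmic chaperones, enters the nucleus and acts on transcription through DNA elements and through other transcription factors. In lung epithelium glucocorticoids are known for inducing feedback inhibitors of inflammatory signalling and regulators of metabolism. Precision run-on sequencing (PRO-seq) lets engaged RNA polymerases add a labelled nucleotide in permeabilised cells and sequences the labelled RNA, so that it reports polymerase activity rather than stored mRNA. Levels are given as CPM, the usual counts scaled to a common library total with TMM factors, for each library in replicate order. They are not divided by gene length and are not compared between genes.

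The 4 libraries held 13069598 and 12438774 counts (untreated) and 11306546 and 10414560 counts (Dex). Mitochondrial genes took 76.0% and 73.4% of the counts in the untreated libraries and 71.5% and 69.5% in the Dex libraries, so both Dex libraries lay below both untreated libraries. Across the series this share ran from 58.7% to 78.7%. Of the nuclear counts outside ribosomal RNA, processed pseudogenes took 1.34% and 1.21% in untreated and 1.18% and 1.40% in Dex libraries. Pearson's r of log2 CPM between replicates, across 11117 genes, was 0.979 for untreated and 0.975 for Dex libraries. All 6 epithelial markers had counts in every library, among them 732 to 1055 for KRT18, and none of the markers of any list was called. Epithelial markers summed to 406 to 464 CPM of total counts in untreated libraries and 556 to 672 in Dex libraries, and their part in the results was not tested. Leukocyte, endothelial and fibroblast lists summed to 0.402 to 4.33 CPM of total counts in all 4 libraries, and CD3E was at 0 in each.

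After 15 min of Dex, 220 genes were higher and 69 were lower than in untreated cells at an adjusted p below 0.05 (edgeR's quasi-likelihood test, adjusted over the 22919 genes by Benjamini-Hochberg). These were 0.96% and 0.301% of the genes tested, 1.26% together, and 1749 genes had an unadjusted p below 0.05. The higher genes had a median log2 fold change of 0.80 and the lower genes a median size of 0.65 on the log2 scale. At a log2 change of 1 or more in size, 76 genes were higher and 10 lower. Both Dex libraries lay beyond both untreated libraries for all 289 called genes. Of all genes tested, 17.8% had both Dex libraries above and 19.7% had both below. Protein-coding genes made up 173 of the higher and 58 of the lower genes. Scaling to total counts alone moved the median log2 fold change of all genes from -0.01 to 0.31 and gave 260 higher genes and 1 lower, AJUBA, so the changes below are relative to the bulk of nuclear genes. Leaving out 1 of the 4 libraries left 120 genes called (without the first untreated library) to 167 (without the second untreated library), with 143 and 163 without the first and second Dex libraries.

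**Figure D1:**
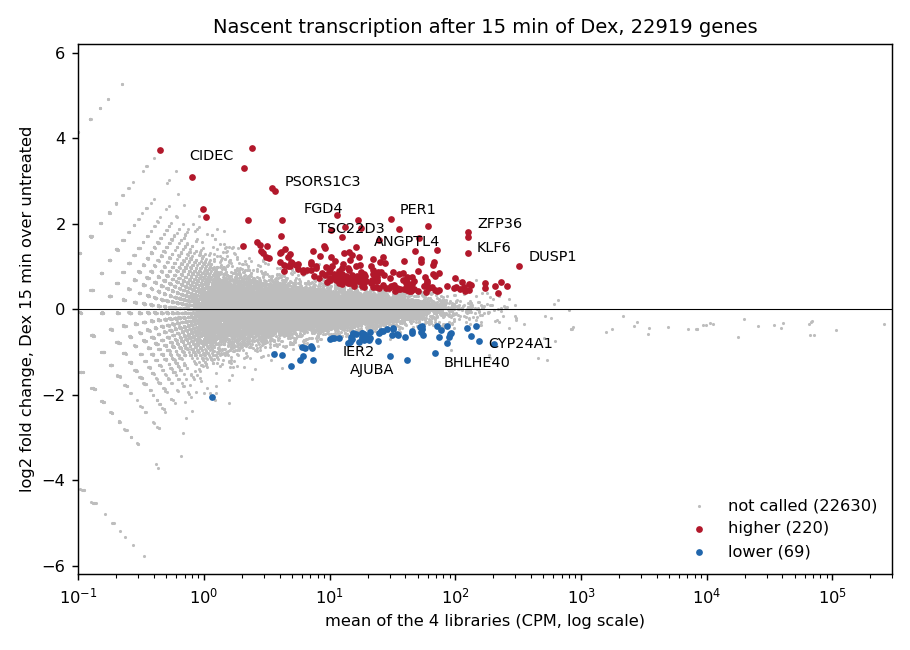
Log2 fold change of Dex for 15 min over untreated (vertical axis) against the mean CPM of the 4 libraries (horizontal axis, log scale), 1 point per gene. Red and blue points are the 220 higher and 69 lower genes, grey points the 22630 genes that were not called, and PER1 and AJUBA are among those named.

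Genes long known as direct glucocorticoid targets stood among the largest rises. PER1 (chromosome 17, 8140472 to 8156506, hg38 with GENCODE 29), a repressor of the circadian clock, had 11.8 and 11.3 CPM in the untreated libraries and 47.9 and 51.2 CPM after Dex. Its log2 fold change was 2.10 (SE 0.14, adjusted p = 7.71e-16), and the replicates of each group lay close together compared with the gap between groups. PER1 shares exonic sequence with 2 other genes on its strand. FGD4, an exchange factor for the small GTPase CDC42, had 6.23 and 6.55 CPM in the untreated libraries and 27.2 and 27.1 CPM after Dex, a log2 fold change of 2.09 (SE 0.17, adjusted p = 2.05e-13). ANGPTL4, a secreted inhibitor of lipoprotein lipase, went from 24.5 and 25.7 to 96.6 and 97.4 CPM, a log2 fold change of 1.95 (SE 0.12, adjusted p = 3.64e-17). TSC22D3, which encodes the anti-inflammatory protein GILZ, had 13.5 and 16.9 CPM in the untreated libraries and 52.2 and 59.5 CPM after Dex. Its log2 fold change was 1.87 (SE 0.13, adjusted p = 3.63e-15). ZFP36, an RNA-binding protein that directs decay of AU-rich mRNAs, went from 56.8 and 55.4 to 196 and 197 CPM, a log2 fold change of 1.81 (SE 0.11). For none of these 5 genes did a Dex library overlap an untreated one, and all 5 were called under each of the 12 alternatives tried.

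Other genes among the 15 largest rises were transcription regulators, scaffold proteins and non-coding RNAs. KLF6, a zinc-finger transcription factor, had 57.7 and 61.9 CPM in the untreated libraries and 194 and 189 CPM after Dex, and its log2 fold change was 1.68 (SE 0.11). CAVIN2, a coat protein of caveolae, had 6.67 and 5.14 CPM in the untreated libraries and 21.1 and 16.7 CPM after Dex, with 1.68 (SE 0.21) on the log2 scale. LURAP1L went from 6.90 and 8.06 to 29.8 and 26.1 CPM and ABTB3 from 24.2 and 25.1 to 78.4 and 77.9 CPM. The microRNA gene MIR4530, just downstream of ZFP36, went from 3.67 and 5.14 to 16.1 and 15.8 CPM. AL034417.4, which overlaps ERRFI1 on the opposite strand, went from 8.56 and 8.77 to 24.6 and 22.8 CPM. AC026461.3, a lincRNA, rose most by the naming rule, from 3.23 and 4.84 to 20.1 and 17.2 CPM, a log2 fold change of 2.20 (SE 0.20). Whether the counting used strand is not given in the sources used here, so counts of overlapping and abutting genes may hold each other's reads. Exons of 90 of the 220 higher genes overlapped those of another gene, of 37 of the 69 lower genes, and of 43.4% of all genes tested.

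**Figure D2:**
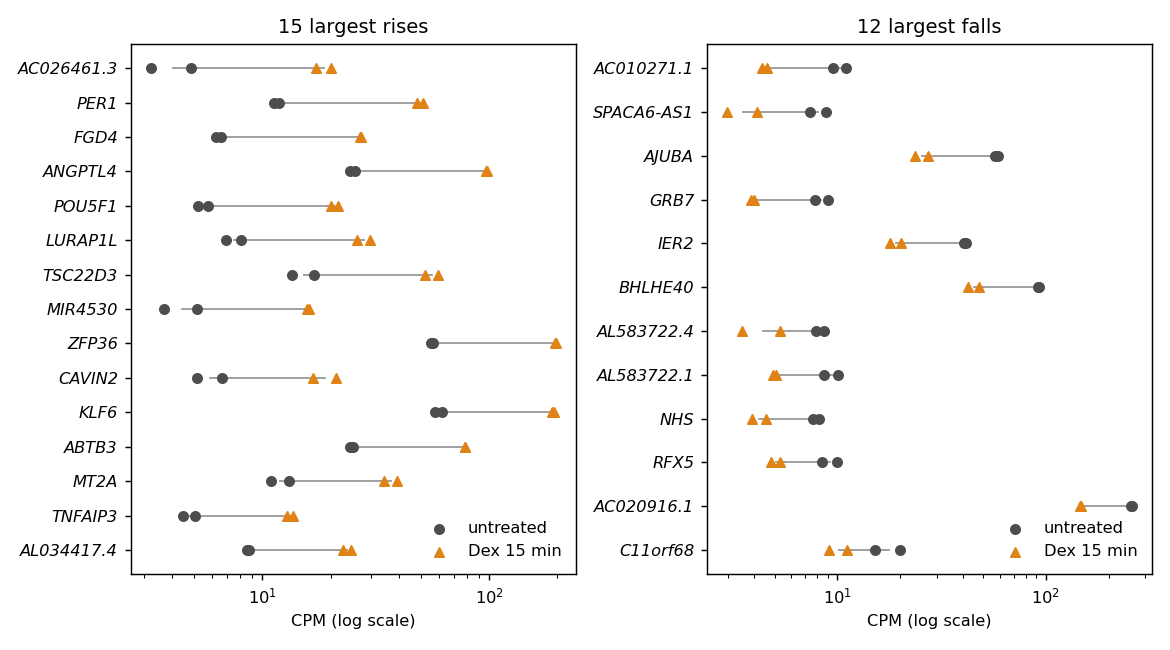
CPM (log scale) of the 15 genes with the largest rises (left) and the 12 with the largest falls (right), taken from called genes whose 4 libraries averaged 5 CPM or more. Circles are the 2 untreated libraries, triangles the 2 Dex libraries, and grey lines join the group means. Circles and triangles do not overlap for any of these genes.

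The list of 26 glucocorticoid-induced regulators held the largest number of rises. Of its members 16 rose, 0 fell and 10 were not called, with a median log2 fold change of 1.00 against -0.01 for all genes tested, of which 0.96% rose and 0.301% fell. This list was drawn from genes known to respond to glucocorticoids, and results of these libraries were known when it was made, so its direction is no independent evidence. DUSP1, a phosphatase that switches off MAP kinases, stood at 205 and 224 CPM in the untreated libraries and 442 and 419 CPM after Dex. Its log2 fold change was 1.01 (SE 0.11, adjusted p = 3.21e-09), and no Dex library overlapped an untreated one. TIPARP, an ADP-ribosyltransferase, went from 40.5 and 44.4 to 89.8 and 93.0 CPM, and IRS2, an adaptor of the insulin receptor, from 39.7 and 39.7 to 101 and 106 CPM. ERRFI1, a feedback inhibitor of the EGF receptor, went from 24.9 and 29.1 to 73.0 and 64.6 CPM, and BCL6, a transcriptional repressor, from 2.11 and 1.71 to 5.92 and 6.60 CPM. The weakest rises of the list were those of RGS2, a regulator of G-protein signalling, and SGK1, a kinase that stimulates sodium transport. RGS2 went from 9.90 and 10.2 to 15.0 and 15.0 CPM (adjusted p = 0.0417) and SGK1 from 24.1 and 28.2 to 40.3 and 37.5 CPM (adjusted p = 0.00484). SNAI2, a repressor of epithelial genes, rested on few reads, 1 and 2 in untreated and 15 and 14 in Dex libraries. Its fitted log2 fold change of 3.09 (SE 0.75, adjusted p = 0.0164) is accordingly imprecise. Leaving out 1 of the 4 libraries gave 13 to 14 rises in the list. RGS2 lost its call in each of these 4 cases (adjusted p = 0.254 to 0.393), as did SNAI2 (0.0745 to 0.31), and SGK1 lost it without the first Dex (0.159) or the first untreated library (0.334).

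Of the receptor and its chaperones only DNAJB1, a co-chaperone of HSP70, passed the test among 11 genes, with 48.2 and 54.3 CPM in the untreated libraries and 72.1 and 73.0 CPM after Dex. NR3C1, which encodes the glucocorticoid receptor itself, had 47.8 and 49.6 CPM in the untreated libraries and 44.5 and 47.2 CPM after Dex. Its log2 fold change was -0.09 (SE 0.11, adjusted p = 0.97), and it turned to 0.23 when scaled to total counts. FKBP5, the receptor co-chaperone that closes a feedback loop, had 5.56 and 5.24 CPM in the untreated libraries and 9.48 and 12.8 CPM after Dex. Both Dex libraries lay above both untreated ones, but the log2 fold change of 1.04 (SE 0.30) did not pass the test (adjusted p = 0.12), while DESeq2 called it (adjusted p = 0.0125). Of 12 coregulators, CITED2, which binds the acetyltransferases p300 and CBP, rose from 20.8 and 24.7 to 39.0 and 35.8 CPM, and the other 11 were not called. Beside these 2 lists, 0.96% of all genes tested rose and 0.301% fell. None of 19 pausing and elongation factors and none of 7 arginine methyltransferases were called by edgeR, where 2 and 1 had an unadjusted p below 0.05, and DESeq2 called 0 of either list. Among them HEXIM1, an inhibitor of P-TEFb, had 95.1 and 86.6 CPM in the untreated libraries and 72.0 and 71.0 CPM after Dex (adjusted p = 0.163), and PRMT5 had 7.90 and 8.77 CPM in the untreated libraries and 6.81 and 6.00 CPM after Dex (adjusted p = 0.706). The call of DNAJB1 was lost without the first Dex (adjusted p = 0.0967), the second Dex (0.11) or the first untreated library (0.38), and that of CITED2 without the first untreated library (0.0687).

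Of 18 circadian clock genes tested PER1 and PER2 rose, BHLHE40, a repressor of clock genes, fell and 15 were not called, and the list's median log2 fold change was -0.12. The shares over all genes tested were 0.96% higher and 0.301% lower. PER2 had 6.90 and 9.87 CPM in the untreated libraries and 16.7 and 16.4 CPM after Dex, a log2 fold change of 0.97 (SE 0.17, adjusted p = 1.21e-04). BHLHE40 had 91.4 and 92.7 CPM in the untreated libraries and 42.3 and 47.9 CPM after Dex, a log2 fold change of -1.03 (SE 0.12, adjusted p = 3.34e-08), and its antisense RNA BHLHE40-AS1 had 6.67 and 7.46 CPM in the untreated libraries and 3.26 and 2.30 CPM after Dex. The fall of BHLHE40 was not called when the libraries were scaled to total counts. The rise of PER2 was not called without the first untreated library (adjusted p = 0.0755).

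Among metal-binding and lipid genes, 2 of 6 metallothionein-list genes rose and 5 of 15 genes of lipid and glucose metabolism rose, and none fell, where 0.96% of all genes tested rose and 0.301% fell. MT2A, a metallothionein, had 13.1 and 10.9 CPM in the untreated libraries and 34.5 and 39.4 CPM after Dex, a log2 fold change of 1.62 (SE 0.14, adjusted p = 7.43e-12), and MT1X went from 12.9 and 14.2 to 22.9 and 20.2 CPM. MT1X belongs to a family of near-identical genes and overlaps another gene on its strand, so its count is uncertain. It was not called without the first Dex (adjusted p = 0.201) or the first untreated library (0.193), which left 1 rise in the list, that of MT2A. CIDEC, a protein of lipid droplets, was counted 2 and 5 times in untreated and 37 and 39 times in Dex libraries, a fitted log2 fold change of 3.31 (SE 0.45, adjusted p = 1.04e-06). PDK4, a kinase that holds back pyruvate oxidation, went from 4.34 and 5.54 to 13.0 and 13.6 CPM, and FOXO1, a transcription factor of fasting metabolism, from 8.34 and 8.36 to 15.4 and 15.4 CPM.

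KLF, C/EBP and growth-factor feedback genes rose in part, where 0.96% of all genes tested rose and 0.301% fell. Of 14 KLF genes 3 rose (KLF6, KLF9 and KLF4) and 11 were not called. KLF9, known as a direct receptor target, had 8.34 and 6.55 CPM in the untreated libraries and 20.3 and 16.5 CPM after Dex, and KLF4, an epithelial differentiation factor, had 18.6 and 21.1 CPM in the untreated libraries and 39.2 and 29.9 CPM after Dex. KLF10 had 21.5 and 20.4 CPM in the untreated libraries and 15.4 and 14.0 CPM after Dex and was not called (adjusted p = 0.0617). Of 6 genes of the C/EBP list, 2 leucine zipper factors rose, CEBPB from 35.0 and 32.1 to 76.2 and 68.0 CPM and CEBPD from 44.6 and 47.2 to 81.0 and 63.9 CPM. Of 16 MAP kinase phosphatases and feedback genes, 5 rose and 0 fell. They were DUSP1, ERRFI1, the receptor tyrosine kinase antagonists SPRY1 and SPRY2, and DUSP4, and DUSP4 was the weakest, at 177 and 201 against 245 and 243 CPM (adjusted p = 0.0494). DUSP6, a phosphatase specific for ERK, had 3.11 and 4.13 CPM in the untreated libraries and 7.01 and 5.90 CPM after Dex and missed the threshold (adjusted p = 0.0562). DUSP4 lost its call when any 1 of the 4 libraries was left out (0.0749 to 0.802) and SPRY1 without the first Dex library (0.101), so that without that library 3 of the 5 rises were called. KLF4 lost its call without the first Dex (0.276) or the first untreated library (0.238). CEBPD lost it without the first Dex (0.527), the first untreated (0.479) or the second untreated library (0.244), with the replicate number as a block (0.0812) and with crossed numbers (0.0726).

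Among 19 AP-1 and immediate early genes tested, IER2, NR4A1, JUN and IER3 fell, FOSL2 rose and 14 were not called, and the list's median log2 fold change was -0.30. Across all genes tested 0.96% rose and 0.301% fell. IER2, a nuclear protein of the early growth response, had 41.2 and 40.3 CPM in the untreated libraries and 17.9 and 20.3 CPM after Dex, a log2 fold change of -1.09 (SE 0.13, adjusted p = 2.58e-08). JUN, an AP-1 subunit, had 49.9 and 57.3 CPM in the untreated libraries and 35.3 and 39.4 CPM after Dex (-0.52 on the log2 scale, adjusted p = 0.012), and NR4A1, an orphan nuclear receptor, had 21.4 and 22.2 CPM in the untreated libraries and 11.5 and 13.9 CPM after Dex (-0.78, adjusted p = 0.00396). FOSL2, also an AP-1 subunit, went the other way, from 73.2 and 76.8 to 123 and 124 CPM. FOS had 24.7 and 23.2 CPM in the untreated libraries and 25.8 and 23.2 CPM after Dex and JUNB had 67.5 and 70.5 CPM in the untreated libraries and 63.0 and 57.5 CPM after Dex, and neither was called. Scaled to total counts, none of the 4 falls was called. The list's falls numbered 1 without the first Dex, 3 without the second Dex, 3 without the first untreated and 2 without the second untreated library, and IER2 was called in each of these 4 cases. Of 11 genes of the MYC network, MYC rose from 93.3 and 88.8 to 117 and 136 CPM and MNT, a repressor that shares MYC's partner MAX, fell from 49.8 and 48.4 to 33.9 and 28.2 CPM. MYC was not called without the second Dex (adjusted p = 0.502), the first untreated (0.114) or the second untreated library (0.231), and MNT was not called without the second Dex library (0.108).

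Of 13 genes tested of the NF-kB list, TNFAIP3, NFKBIA and BIRC3 rose, NFKB2 fell and 9 were not called. Across all genes tested 0.96% rose and 0.301% fell. TNFAIP3, the ubiquitin-editing inhibitor A20, had 4.45 and 5.04 CPM in the untreated libraries and 13.7 and 12.9 CPM after Dex, a log2 fold change of 1.48 (SE 0.23, adjusted p = 2.33e-05). NFKBIA, which holds NF-kB in the cytoplasm, had 65.8 and 79.4 CPM in the untreated libraries and 179.8 and 179 CPM after Dex, a log2 fold change of 1.30 (SE 0.11, adjusted p = 5.06e-13). The subunit gene NFKB2 went from 39.4 and 36.4 to 23.3 and 26.2 CPM, and its fall was not called without the first Dex (adjusted p = 0.167) or the first untreated library (0.109) or with total counts (0.554). The subunits RELA (34.0 and 36.4 against 29.3 and 25.7 CPM, adjusted p = 0.22) and NFKB1 (10.9 and 11.4 against 11.5 and 12.2 CPM, adjusted p = 0.992) were not called. Of 14 cytokine and inflammatory genes tested, the neutrophil chemokine CXCL2 rose, from 16.3 and 17.9 to 30.9 and 31.6 CPM, and the other 13 were not called.

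Promoters of the called genes were searched in RefSeq sequence (GRCh38.p14, 250 bases before to 50 after the start), which held 153 of the 220 higher and 54 of the 69 lower genes. The receptor's full palindromic element, half-sites AGNACA and TGTNCT with 3 bases between them, searched on both strands, was found in 0 of the 153 and 0 of the 54, and in 0.0732% of all 27305 promoters. The shorter core ACANNNTGT, chosen after the values were seen, was in 9 of the 153 (5.88%), in 0 of the 54 and in 5.45% of all promoters. An NF-kB motif, GGGA and TTTCC with 1 base between them, also chosen afterwards and searched on both strands, was in 3 of the 153 (1.96%), in 0 of the 54 and in 0.579% of all. A match is a description of the letters, not a bound site. The 250 bases before the start are printed for the 3 genes with the NF-kB motif, which all belong to the lists above, and for 2 genes with the core. Capitals mark the motif, read on the gene's strand, which begins 67 bases before the start in TNFAIP3, 81 in NFKBIA, 78 in CXCL2, 137 in CAVIN2 and 46 in IRS2. The regions are chr6:137867009-137867258 (plus strand), chr14:35404750-35404999, chr4:74099196-74099445, chr2:191847089-191847338 and chr13:109786584-109786833 (minus strand for these 4).
TNFAIP3: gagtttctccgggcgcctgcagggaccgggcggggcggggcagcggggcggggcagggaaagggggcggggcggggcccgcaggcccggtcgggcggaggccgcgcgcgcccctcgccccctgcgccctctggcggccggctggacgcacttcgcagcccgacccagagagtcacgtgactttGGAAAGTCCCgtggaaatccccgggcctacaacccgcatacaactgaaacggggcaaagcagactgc
NFKBIA: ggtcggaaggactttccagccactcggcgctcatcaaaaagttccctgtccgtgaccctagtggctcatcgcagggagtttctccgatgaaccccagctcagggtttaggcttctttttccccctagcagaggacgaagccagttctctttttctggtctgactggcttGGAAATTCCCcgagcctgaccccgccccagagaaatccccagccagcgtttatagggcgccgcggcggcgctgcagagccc
CXCL2: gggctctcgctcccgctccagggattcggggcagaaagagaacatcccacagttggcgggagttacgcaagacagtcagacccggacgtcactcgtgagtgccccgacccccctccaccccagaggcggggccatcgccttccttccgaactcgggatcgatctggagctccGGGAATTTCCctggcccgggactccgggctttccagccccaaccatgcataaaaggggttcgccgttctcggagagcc
CAVIN2: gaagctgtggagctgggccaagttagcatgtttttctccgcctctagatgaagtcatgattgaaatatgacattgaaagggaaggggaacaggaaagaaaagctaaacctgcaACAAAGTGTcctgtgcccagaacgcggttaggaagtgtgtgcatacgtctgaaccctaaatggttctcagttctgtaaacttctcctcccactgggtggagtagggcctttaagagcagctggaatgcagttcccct
IRS2: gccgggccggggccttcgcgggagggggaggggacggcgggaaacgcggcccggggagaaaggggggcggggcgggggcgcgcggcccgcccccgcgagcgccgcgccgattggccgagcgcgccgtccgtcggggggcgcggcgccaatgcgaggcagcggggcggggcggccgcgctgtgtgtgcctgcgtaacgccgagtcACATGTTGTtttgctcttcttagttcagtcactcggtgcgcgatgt

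AJUBA (chromosome 14, 22971174 to 22982642), a LIM protein that binds the LATS kinases of the Hippo pathway, had the clearest fall. It had 56.7 and 58.6 CPM in the untreated libraries and 27.2 and 23.5 CPM after Dex, a log2 fold change of -1.18 (SE 0.12, adjusted p = 8.55e-10), and was the 1 lower gene called under each alternative. It shares exonic sequence with 1 other gene on its strand. Of 21 genes of the Hippo pathway and its YAP targets, ANKRD1 and CCN2, both known YAP targets, rose and 18 were not called. The shares over all genes tested were 0.96% higher and 0.301% lower. ANKRD1 went from 6.01 and 6.15 to 16.1 and 12.4 CPM and CCN2 from 7.56 and 11.4 to 18.7 and 18.6 CPM. Other falls among the 12 largest were those of GRB7, an adaptor of receptor tyrosine kinases (7.79 and 8.97 against 3.85 and 4.00 CPM), RFX5, a factor for MHC class II genes (8.45 and 9.97 against 5.33 and 4.80 CPM), and AC010271.1, which overlaps SERTAD3 (9.57 and 11.0 against 4.34 and 4.60 CPM). Further genes, chosen after their values were seen, were CYP24A1, FASN and INSIG1. CYP24A1, which breaks down vitamin D, had 196 and 189 CPM in the untreated libraries and 105 and 124 CPM after Dex, a log2 fold change of -0.75 (SE 0.13, adjusted p = 2.72e-04). FASN, the fatty acid synthase, went from 97.2 and 98.9 to 73.5 and 74.8 CPM (adjusted p = 0.0393), and INSIG1, which retains sterol regulators in the endoplasmic reticulum, from 17.7 and 18.9 to 13.0 and 8.30 CPM (adjusted p = 0.00207). GRB7 was not called without the second untreated library (adjusted p = 0.0676) and INSIG1 without the second Dex (0.464) or the second untreated library (0.0661). RFX5 (0.0834 to 0.414) and FASN (0.249 to 0.36) lost their calls when any 1 of the 4 libraries was left out, and DESeq2 called neither (0.0947 and 0.0766).

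Called genes lay near each other in places. Among the 289 called genes there were 58 pairs with a gap of at most 50 kb, which involved 80 genes, and both members moved in the same direction in all 58. In 25 pairs the genes overlapped, where shared reads cannot be told apart, and in the other 33 they did not. Of all 34975 pairs of tested genes at that distance without overlap, 54.0% had fold changes of the same sign. Most of those genes were not called, and 220 of the 289 called genes rose, so this share is no baseline for the 33 pairs. Several of the 33 pairs also have genes in common or nearly abut, where reads may be shared. On chromosome 20 (hg38, GENCODE 29) 6 called genes lay between 25195693 and 25390983. They were ENTPD6, AL035252.3, AL121772.1, PYGB, AL121772.2 and ABHD12, and all 6 rose. AL121772.2, an antisense RNA inside PYGB, had 0.222 and 0.403 CPM in the untreated libraries and 4.15 and 4.80 CPM after Dex, a fitted log2 fold change of 3.77 (SE 0.46), and PYGB, the brain form of glycogen phosphorylase, had 47.3 and 46.1 CPM in the untreated libraries and 69.8 and 72.6 CPM after Dex (0.61, SE 0.10). On chromosome 6, between 31158542 and 31180731, 3 genes that overlap in part rose. POU5F1, a pluripotency factor in embryonic cells, had 5.23 and 5.74 CPM in the untreated libraries and 21.6 and 20.1 CPM after Dex, the RNA gene PSORS1C3 within it had 0.445 and 1.41 CPM in the untreated libraries and 6.02 and 6.90 CPM after Dex, and TCF19 had 8.90 and 9.07 CPM in the untreated libraries and 21.7 and 18.1 CPM after Dex. On chromosome 16, AC026461.3 (56609501 to 56611375, minus strand) ends at 56609501, next to the end of MT2A at 56609497 on the plus strand. On chromosome 19, ZFP36 (39406813 to 39409412), MIR4530 and PLEKHG2 (50.2 and 57.2 against 77.3 and 76.9 CPM) rose together. AL035252.3 lost its call when any 1 of the 4 libraries was left out (adjusted p = 0.0796 to 0.474), ABHD12 without the first Dex (0.0644) or the second untreated library (0.125), and PLEKHG2 without the first untreated library (0.206). DESeq2 did not call AL035252.3 (0.0847) and gave no adjusted p for AL121772.2 or PSORS1C3.

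The share of genes called was larger among short than among long genes. Among protein-coding genes 15 of 1465 genes under 5 kb fell (1.02%), but 1 of 3602 genes over 80 kb (0.0278%). Rises were called for 29 of the 1465 short genes (1.98%) and 35 of the 3602 long ones (0.972%). In the classes between, from shorter to longer, rises were called for 1.15%, 1.38%, 1.19% and 0.716%. Of all 14978 protein-coding genes 173 rose and 58 fell, 1.54% together. Shares by length were not computed under the alternatives, and scaling to total counts left 1 lower gene. The median length was 9890.5 bases for the 58 lower genes, 21954 for the 173 higher genes and 31187 for all 14978 protein-coding genes tested. The gene over 80 kb that fell was NHS, with 8.12 and 7.66 CPM in the untreated libraries and 4.54 and 3.90 CPM after Dex (adjusted p = 0.0343), and it lost its call when any 1 of the 4 libraries was left out (0.158 to 0.457). At 3 h, in a comparison that shares the untreated libraries, falls were called for 4.37% of protein-coding genes under 5 kb and 6.25% of those over 80 kb. Rises were called for 10.4% and 5.52%. Over all genes tested, non-coding genes included, 4.41% were called lower and 6.11% higher, so those 2 shares are no baseline for the protein-coding classes. The shares by length are descriptions. Median levels were 7.61 CPM under 5 kb, 8.55 CPM from 5 to 10 kb, the highest, and 7.40 CPM over 80 kb, the lowest. The part of level in the shares was not tested.

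**Figure D3:**
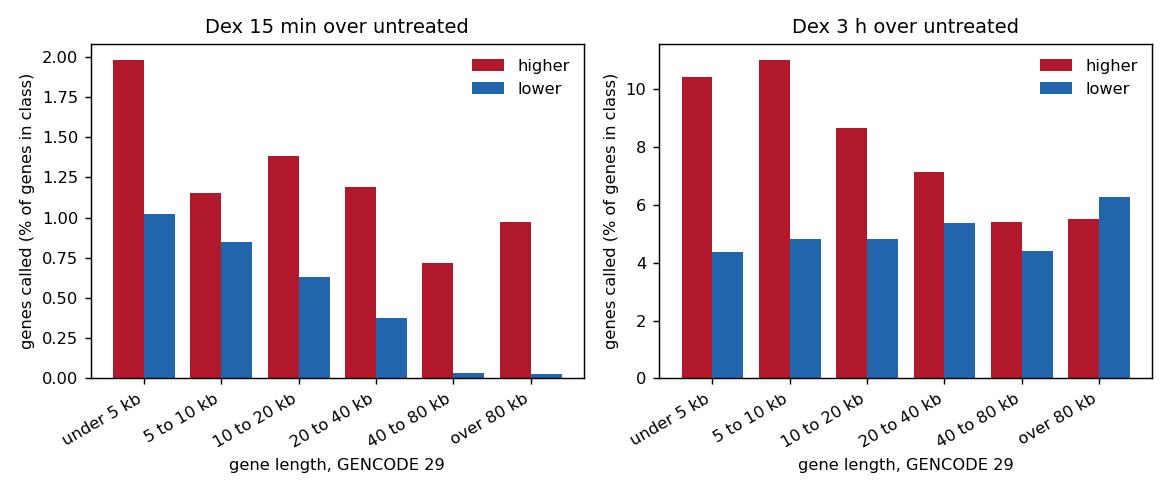
Share of protein-coding genes called higher (red) and lower (blue) in 6 classes of gene length, after 15 min (left) and 3 h (right) of Dex, each against untreated. At 15 min the share called lower went from 1.02% under 5 kb to 0.0278% over 80 kb. The 2 panels have different vertical scales and share the untreated libraries.

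The next question was which early changes lasted. Dex for 3 h was compared with Dex for 15 min, a comparison that shares the 15 min libraries with the one above and is not independent of it. In it 6.23% of all genes were called higher and 4.53% lower, 1428 and 1039 genes (edgeR quasi-likelihood test), and 278 higher and 529 lower when scaled to total counts. Of the 220 genes higher at 15 min, 53 were higher still at 3 h, 34 were lower at 3 h than at 15 min and 133 were not called between the times. Of the 69 lower genes, 27 were higher at 3 h than at 15 min, 12 were lower still and 30 were not called. Set against untreated, with which the 15 min calls share libraries, 171 of the 220 were called higher at 3 h, 5 lower and 44 neither. For the 69 these numbers were 2 higher, 30 lower and 37 neither. Among all genes 6.11% were called higher and 4.41% lower in that comparison.

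Rises that receded by 3 h included those of several signalling regulators. KLF6 stood at 109 and 102 CPM at 3 h (-0.86 against 15 min on the log2 scale, adjusted p = 2.54e-08), between its untreated and its 15 min levels. TNFAIP3 stood at 4.68 and 7.45 CPM (-1.15, adjusted p = 2.81e-04) and CXCL2 at 13.4 and 15.3 CPM (-1.13, adjusted p = 3.43e-07). CXCL2 was thus at 3 h below both of its untreated libraries, while a TNFAIP3 library at 3 h lay within the untreated range. PRDM1, a repressor of lymphoid and epithelial genes chosen after its values were seen, went from 6.56 and 7.46 CPM untreated through 13.6 and 12.1 CPM to 2.87 and 4.27 CPM. DUSP4 (108 and 119 CPM at 3 h) and MYC (76.4 and 78.6 CPM) also ended below both untreated libraries. The 15 min call of PRDM1 was lost without the first Dex (adjusted p = 0.165) or the first untreated library (0.205).

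Other rises continued. FKBP5, not called at 15 min, reached 40.5 and 40.1 CPM at 3 h (1.85 against 15 min, adjusted p = 1.54e-05). TSC22D3 reached 114 and 112 CPM (1.01, adjusted p = 8.66e-09), RGS2 33.3 and 28.9 CPM and CIDEC 11.7 and 12.6 CPM. Of genes chosen after their values were seen, CKB, the brain creatine kinase, went from 16.0 and 15.7 through 30.4 and 25.6 to 64.0 and 77.7 CPM, and DDIT4, an inhibitor of mTORC1, from 138 and 149 through 203 and 203 to 330.5 and 326 CPM. PER1 (-0.22, adjusted p = 0.293), MT2A (0.06, adjusted p = 0.823) and DUSP1 (0.28, adjusted p = 0.0908) were not called between the times. Falls diverged too. AJUBA stood at 65.6 and 64.2 CPM at 3 h (1.35 against 15 min, adjusted p = 7.97e-12), above both untreated libraries, and SERTAD3, a cell-cycle regulator, went from 17.5 and 19.4 through 10.3 and 12.1 to 25.7 and 25.4 CPM. FASN returned as well, to 110.2 and 128 CPM. NFKB2 fell further, to 10.5 and 11.4 CPM (-1.18, adjusted p = 3.50e-08), as did JUN (23.4 and 23.1 CPM), CYP24A1 (48.7 and 46.2 CPM) and PLAUR, the urokinase receptor (7.33 and 7.08 CPM). BHLHE40 stayed low, at 51.0 and 44.8 CPM (0.09, adjusted p = 0.727). At 15 min the call of PLAUR was lost when any 1 of the 4 libraries was left out (adjusted p = 0.0782 to 0.64), that of SERTAD3 without the first Dex (0.132) or the second untreated library (0.0752), and that of DDIT4 without the first untreated library (0.145). No vehicle library of 3 h was used here.

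**Figure D4:**
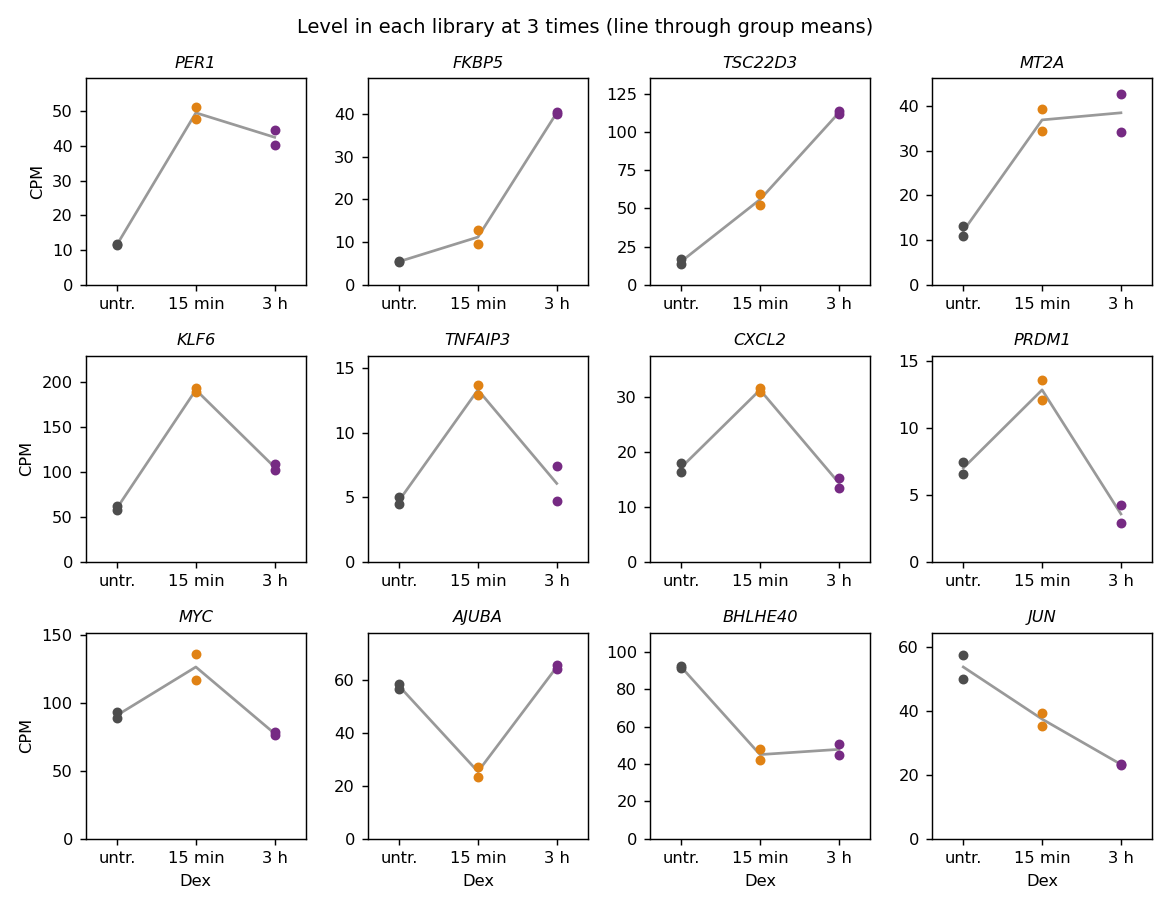
CPM of 12 genes in each of the 2 untreated libraries, the 2 libraries after 15 min and the 2 after 3 h of Dex, with a line through the group means and the vertical axis starting at 0. FKBP5 and TSC22D3 kept rising, KLF6, TNFAIP3, CXCL2, PRDM1 and MYC peaked at 15 min, AJUBA dipped at 15 min, and JUN fell at both times.

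The same treatment was given to cells that had been held for 7 days in GSK591 or in MS023, and those libraries are not shared with the comparison above. Each was compared with the inhibitor alone. After GSK591, 118 of the 220 higher genes were called higher and 0 lower, where 1.07% of all genes were called higher. After MS023, 129 of the 220 were called higher and 0 lower, where 1.23% of all genes were. Of the 69 lower genes, 35 were called lower after GSK591 (1.03% of all genes) and 31 after MS023 (0.842%), and 0 were called higher in either. Called in both arms were 96 of the higher and 24 of the lower genes, and 200 and 64 had the same sign in both. The shares of all genes tested with a call in both arms, or with the same sign in both, were not computed. These numbers are therefore given without a baseline. Counted from the other side, the 118 shared genes were 48.2% of the 245 higher after GSK591, and the 129 were 45.9% of the 281 higher after MS023. The 35 and 31 shared lower genes were 14.9% of 235 and 16.1% of 193. The median log2 fold change of the 220 was 0.56 after GSK591 and 0.59 after MS023, against 0.80 in the libraries in which they were called, and that of the 69 was -0.46 and -0.45 against -0.65. Scaled to total counts, the call after GSK591 split into 66 higher and 6 lower rather than 245 and 235, and after MS023 into 44 and 27 rather than 281 and 193.

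PER1 had log2 fold changes of 2.10 without inhibitor, 2.68 after GSK591 (from 5.81 and 6.70 to 42.5 and 37.8 CPM) and 2.49 after MS023 (from 7.72 and 5.79 to 35.1 and 41.0 CPM). TSC22D3 had 1.87, 2.03 and 2.12, NFKBIA had 1.30, 1.45 and 1.85, and DUSP1 had 1.01, 0.71 and 1.35 on the same scale. AJUBA had -1.18, -1.17 and -1.29, IER2 had -1.09, -1.07 and -0.93, and BHLHE40 had -1.03, -1.20 and -1.13. All 7 genes were called in each setting. FKBP5 was called after GSK591 (1.50, adjusted p = 0.0279) and not after MS023 (0.92, adjusted p = 0.128). NR4A1 fell without inhibitor (-0.78) but had 0.06 after GSK591 (adjusted p = 0.94) and 0.36 after MS023 (adjusted p = 0.494). CDKN1A, the cell-cycle inhibitor p21, chosen after its values were seen, went from 10.3 and 11.1 to 21.1 and 21.7 CPM without inhibitor (1.00, adjusted p = 1.86e-05). After GSK591 it stood at 32.9 and 24.0 CPM before and 30.7 and 25.9 CPM with Dex, and after MS023 at 19.3 and 14.2 and 17.8 and 18.0 CPM. The difference between its responses did not pass the interaction test for GSK591 (-1.02, adjusted p = 0.0651) or MS023 (-0.90, adjusted p = 0.267). None of the 289 genes passed either interaction test in edgeR, in which 0.00436% of all genes passed with each inhibitor, and in which 1569 of all genes with GSK591 and 1023 with MS023 had an unadjusted p below 0.05. DESeq2 called 0 genes with GSK591.

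**Figure D5:**
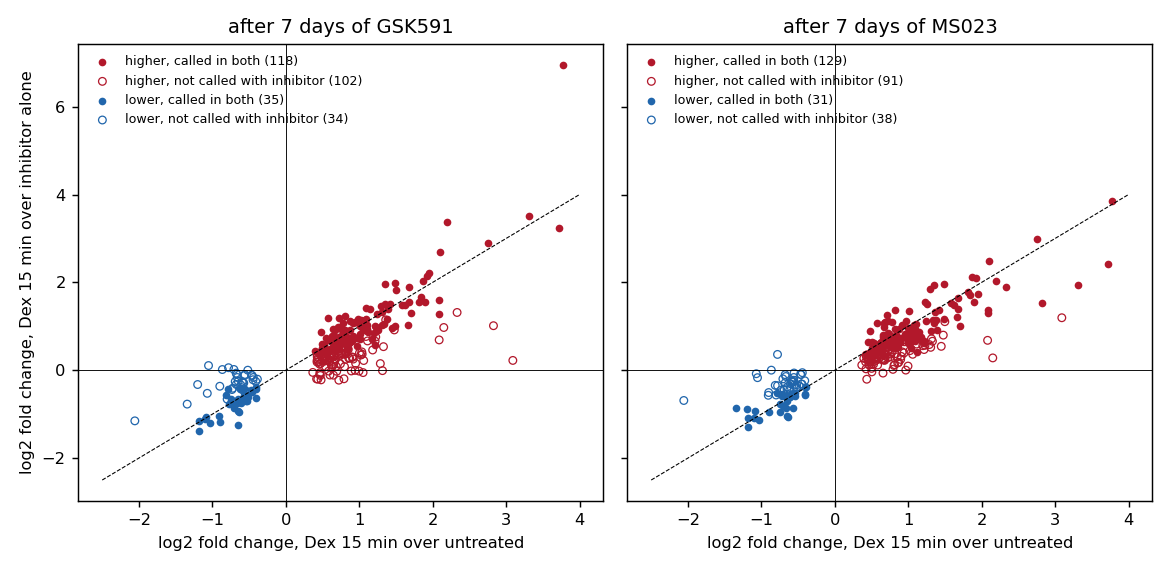
Log2 fold change of Dex for 15 min after 7 days of GSK591 (left) or MS023 (right) over the inhibitor alone (vertical axis), against that without inhibitor (horizontal axis), for the 220 higher (red) and 69 lower (blue) genes, with equal values on the dashed line. Filled points, 118 and 35 on the left and 129 and 31 on the right, were also called with the inhibitor.

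The authors' deposited table for this comparison was set beside the counts. It gives an adjusted p for 14319 genes and lists 451 higher (3.15%) and 112 lower (0.782%) at an adjusted p below 0.05, 3.93% in all. Of the 220 higher genes 170 are listed in the authors' deposited table, 129 of them called higher and 0 lower, and of the 69 lower genes 54 are listed, 30 called lower and 0 higher. FKBP5 is called there, with a log2 fold change of 1.54 (adjusted p = 5.11e-34 in the authors' deposited table). PYGB ranks 1 by p-value in the authors' deposited table, with a log2 fold change of 2.14 against 0.61 in the counts, and TCF19 has 0.04 there against 1.15. FGD4 has 1.33 in the authors' deposited table against 2.09 in the counts. The authors' fold changes may have been shrunk towards no change, which the sources used here do not state. IL11, for example, has a log2 fold change of -0.26 there, smaller than its SE of 0.50, but ranks 953 by p-value. The fold changes of the 2 sources may thus be unlike measures, and a gap between them does not by itself show different counts. For FGD4 the count table held 56 and 65 counts in the untreated and 276 and 271 in the Dex libraries, whereas the mean normalised count in the authors' deposited table is 1822. The 2 sources therefore do not hold the same counts for this gene, and the regions counted for either are not given in the sources used here.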

How the data were processed

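PRO-seq reads were counted per gene by the authors with featureCounts 2.0.1 of Subread, on hg38, per the submitters' processing notes, and the deposited values are raw counts for 58780 genes, named through GENCODE 29. Strand and region settings are not given in the sources used here. The members and gene lists were chosen with earlier results of these data known.

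Genes were filtered with filterByExpr (minimum count 10, minimum total 15), scaled by TMM and fitted in edgeR 4.0.16 (R 4.3.3, limma 3.58.1) with the robust quasi-likelihood test over all 15 groups of 2 libraries, which left 15 residual degrees of freedom. P-values were adjusted by Benjamini-Hochberg over the 22919 genes tested, at 0.05. The script was tested on simulated data. DESeq2 1.42.0, other scalings, no filter, a replicate block and leaving out each library were alternatives. Genes were named by rule: of called genes averaging 5 CPM or more whose groups did not overlap, the 15 that rose and the 12 that fell most, then called list members, 7 fixed genes and genes called in an interaction. Some genes the rule names are not reported here. Genes outside this rule are said to be chosen afterwards, and RELA, NFKB1, FOS, JUNB, DUSP6, KLF10, HEXIM1 and PRMT5 are list members that were not called.

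The authors' deposited table gives log2 fold changes, p-values and a mean signal per gene (an average of normalised counts), made by the authors with DESeq2 per the file headers and used as they stand. Whether its fold changes were shrunk is not given in the sources used here. Promoter sequences came from RefSeq. Total counts per library ran from 8441211 to 13069598, and the number of libraries limits the precision.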

Additional observations from a re-analysis of the deposited data

Results flagged for a closer look

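At 15 min the response to Dex differed between cells with and without 7 days of inhibitor for 1 gene per inhibitor, by the edgeR test of the interaction. GNG11, a G-protein gamma subunit, had 9.34 and 12.5 CPM in untreated and 12.6 and 13.0 CPM in Dex libraries, a log2 fold change of 0.23. After GSK591 it had 18.9 and 20.5 CPM alone and 9.29 and 8.66 CPM with Dex (-1.14), which makes a difference of -1.36 on the log2 scale (SE 0.25, adjusted p = 0.0397). FZD5, a Wnt receptor, had 13.7 and 16.1 CPM in untreated and 14.0 and 10.9 CPM in Dex libraries, a log2 fold change of -0.26. After MS023 it had 21.6 and 19.5 CPM alone and 40.1 and 42.0 CPM with Dex (1.00), a difference of 1.26 (SE 0.20, adjusted p = 0.00112). Neither gene was called for Dex without inhibitor. By number of calls, 0 genes passed the test with GSK591 under DESeq2, total-count scaling or a fit of the compared groups alone, and 0 with MS023 under total-count scaling. Neither the call of GNG11 nor that of FZD5 was kept in every fit without 1 library.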

How the results depend on the processing

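Of the 289 genes called for Dex at 15 min, 74 (73 higher, 1 lower) were called in all 13 settings. The 8 alternatives that kept all 4 libraries gave 212 (DESeq2) to 325 genes (compared groups alone), each within 1.5 times the 289, but total counts put 99.6% of the calls higher, against 76.1%. Leaving out each library gave 120 to 167, a lone library then being assumed to vary like the other groups. FKBP5 passed with no filter (adjusted p = 2.01e-05), total counts (0.00251), the compared groups alone (0.00399) and DESeq2 (0.0125), and its adjusted p over the other 8 alternatives ran from 0.0726 to 0.743. Signs turned for NR3C1 (0.23), FZD5 (0.051) and JUNB (0.12) with total counts, and for FOS without 1 library (-0.045 to 0.11), on the log2 scale; none of these was called. For 3 h against 15 min, total counts gave 807 genes and DESeq2 1382, against 2467, and leaving out each library gave 1182 to 1449. After GSK591, total counts gave 72 genes, the compared groups alone 170 and DESeq2 284, against 480, and leaving out each library 149 to 365. After MS023 the values were 71, 715 and 264, against 474, and 178 to 256. The interaction with GSK591, with 1 gene, gave 17 with no filter, 0 with total counts, the compared groups alone and DESeq2, and 0 to 7 without 1 library. That with MS023, also with 1 gene, gave 7 with no filter, 0 with total counts, 4 with the compared groups alone and 0 to 2 without 1 library. The cause of these changes was not tested. Counts of few reads limited CIDEC, SNAI2 and AL121772.2.

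Libraries of the same replicate number did not deviate together in untreated and Dex groups at 15 min (r = -0.19). Over 105 pairs of groups r ran from -0.45 to 0.49, above 0.1 in 22 and below -0.1 in 13. The numbers were therefore not taken to pair libraries, and whether libraries of some groups shared a batch was not tested. With the replicate block 310 genes were called for Dex at 15 min, and with crossed numbers, an alternative chosen after seeing the data, 308.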
